A study of Mus musculus with 45 samples.

Results

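Transcript levels were compared between the retina and the hippocampus of vehicle-treated mice. All vehicle libraries of these tissues with a column in the deposited tables were taken, which gave 13 of the 45 libraries of the series: 7 retina libraries from 3 females and 4 males, and 6 hippocampus libraries from 3 females and 3 males. The mice were 3 months old and had received the vehicle, not tamoxifen. The study as a whole asked what tamoxifen leaves behind in the retina, cortex and hippocampus of both sexes. The labels used here name neither strain nor genotype. Both tissues came from 6 of the animals, as the animal number in each library's title shows, and the retina of male 965 had no hippocampus partner here. Replicates are separate animals.

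The retina is an outgrowth of the embryonic forebrain that turns light into neural signals. Rods and cones hold the visual pigments, bipolar cells carry their output to ganglion cells whose axons form the optic nerve, horizontal and amacrine cells act across these pathways, and Müller glia span the whole tissue. The hippocampus is a cortical structure for memory and navigation, built mainly from glutamatergic pyramidal and granule neurons with spiny dendrites, together with GABAergic interneurons. Its axons run partly in myelin, whereas the axons of mouse ganglion cells stay unmyelinated inside the eye.

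Total counts ran from 9143790 to 18253871 in the retina libraries and from 31154253 to 44153288 in the hippocampus libraries, and 16235 to 16920 and 16929 to 17227 genes respectively had at least 1 count. A pooled count of 3 over a tissue, used below as the limit for a gene with 0 counts, was worth 0.0307 CPM (a gene's counts scaled to 1000000 counts of the library) in retina and 0.0147 CPM in hippocampus. The sexes in the labels matched Xist and the Y-linked Ddx3y in all 13 libraries. The first principal component separated the tissues and held 90.7% of the variance, and the second held 1.75%. Each tissue had its own table and its own range of depth, so an effect of table or depth cannot be told apart from tissue, other than by the thinning described in the closing section.

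Of 15410 genes tested, 12979 (84.2%) differed between the tissues at an adjusted p under 0.05 in edgeR's quasi-likelihood test. They comprised 6412 genes (41.6%) higher in retina and 6567 (42.6%) higher in hippocampus. The 13 libraries were fully separated by tissue for 10160 genes (65.9%). Because a difference was the rule and not the exception, gene groups are described below mainly by a stricter count, an adjusted p under 0.05 together with a difference of at least 4-fold. That count was 1550 genes (10.1%) for retina and 1700 (11%) for hippocampus. Of these 3250 genes, 146 had 0 counts in every library of the lower tissue. In bulk tissue, fewer cells of a type and less RNA per cell cannot be told apart, and this holds for each list below. Member counts of the lists are to be read beside the shares of all genes. These are 41.6% and 42.6% for called genes, and 10.1% and 11% for those at least 4-fold apart.

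**Figure D1:**
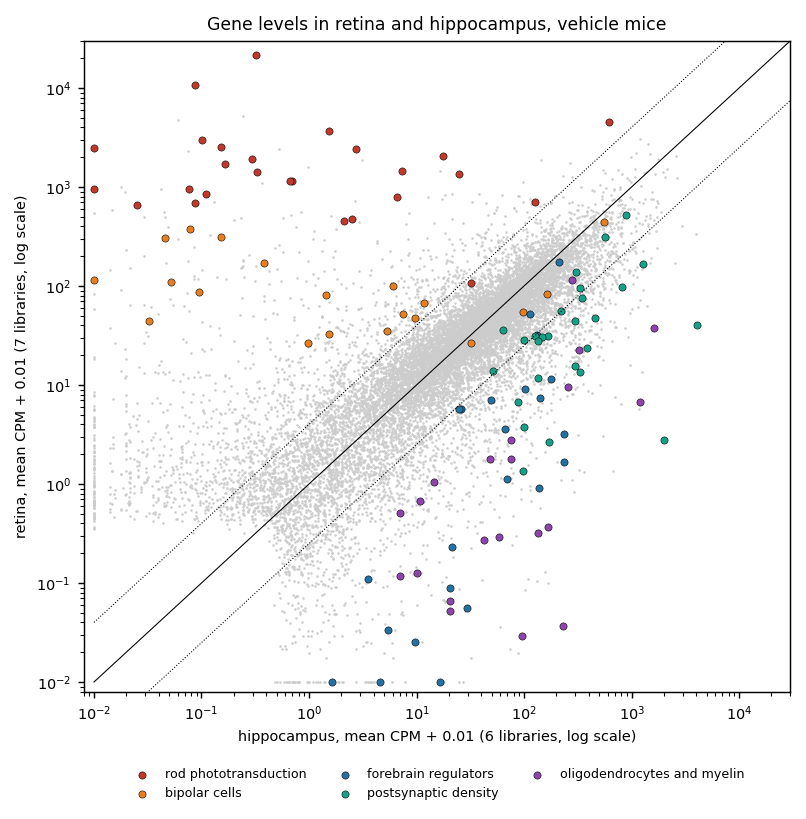
Mean level of each tested gene in hippocampus (x axis, 6 libraries) and retina (y axis, 7 libraries), in CPM plus 0.01 on log scales, with the members of 5 gene lists in colour. The solid line marks equal levels and the dotted lines a 4-fold difference. The 25 of 26 rod genes past 4-fold lie at the upper left, while most myelin genes, forebrain regulators and postsynaptic genes lie at the lower right.

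Lists of cell type markers, gene families and pathways, 42 in all, were examined. In 10 of them at least 50% of the tested members were at least 4-fold higher in retina, and in 8 at least 50% were at least 4-fold higher in hippocampus. The retina group comprised rod phototransduction, cone phototransduction, outer segment, photoreceptor regulators, regulators of the inner retina, bipolar cells, amacrine cells, ganglion cells, pigment epithelium and the ribbon synapse. The hippocampus group comprised forebrain regulators, pyramidal neurons, the postsynaptic density, glutamate receptors, myelin, oligodendrocyte precursors, microglia and immediate early genes. The median difference over all tested genes was -0.01 on the log2 scale, and scaling to library totals alone in place of TMM moved log2 differences up by 0.16.

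**Figure D2:**
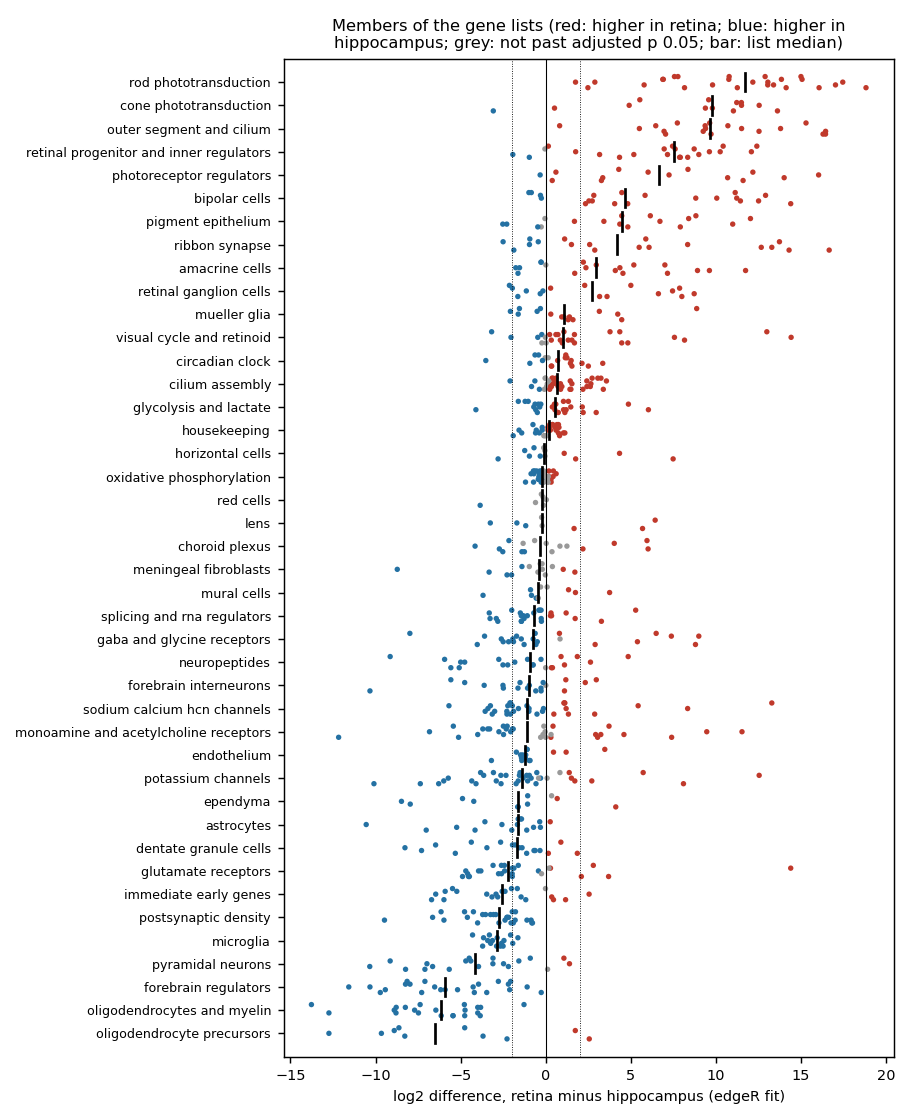
Log2 difference, retina minus hippocampus, of every tested member of the 42 gene lists, sorted by list median (black bars); dotted lines mark a 4-fold difference. The medians run from -6.52 for oligodendrocyte precursors to 11.70 for rod phototransduction, and values of genes with 0 counts in a tissue come from the fit and are not bounds.

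The 26 rod phototransduction genes, some of which other cells also use, together took 7.07% to 7.98% of the retina counts, against 0.0744% to 0.0831% of the hippocampus counts. The 10 most abundant genes of a library held 6.23% to 7.09% of the counts in retina and 2.39% to 2.65% in hippocampus.

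All 26 rod genes were higher in retina, 25 of them at least 4-fold (against 10.1% of all genes), and the median difference was 11.70 on the log2 scale. Gnat1, the alpha subunit of the rod G protein transducin, had 10080, 10726 and 12156 CPM as its lowest, median and highest values in retina. It had 0, 0.0892 and 0.12 CPM in hippocampus. No hippocampus library came near any retina library, and the difference was 17.02 on the log2 scale (adjusted p = 3.41e-22 in edgeR). Per kilobase of the longest annotated transcript, the retina level of Gnat1 was 4621 CPM per kilobase and that of Sag, the rod arrestin, 2120 CPM per kilobase.

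Downstream of transducin, the catalytic subunits of the rod phosphodiesterase, Pde6a and Pde6b, averaged 2991 ± 163 (SD, n = 7) and 2506 ± 150 CPM in retina and 0.0906 and 0.141 CPM in hippocampus. Cnga1, a subunit of the cGMP-gated channel that closes in light, had 831 to 1071 CPM in retina and not 1 count in any hippocampus library. Measured against 3 pooled counts, it was at least 65862-fold higher in retina. Pdc, phosducin, which binds transducin's beta and gamma subunits, was likewise absent from the hippocampus counts. It had 2225, 2481 and 2730 CPM in retina and 0 counts in all 6 hippocampus libraries, at least 167917-fold higher. The only rod gene short of 4-fold was Pde6d, a carrier of prenylated proteins that many cells use, with a log2 difference of 1.74. Gnb1, the transducin beta subunit that other G proteins share, stood at 4513 CPM in retina and still at 615 CPM in hippocampus.

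Cone genes separated the tissues as well. Of 13, 12 were higher in retina, 11 at least 4-fold, and the median was 9.78 on the log2 scale. Opn1sw, the short-wavelength cone opsin, had 438, 500 and 519 CPM in retina as lowest, median and highest values, and at most 0.0599 CPM in hippocampus. Opn1mw, the middle-wavelength opsin, ranged from 140 to 173 CPM in retina and from 0.137 to 0.324 CPM in hippocampus. The tissues did not overlap for either opsin. Slc24a2, a sodium-calcium-potassium exchanger of cones that brain neurons use as well, went the other way. It averaged 147 CPM in retina and 1244 CPM in hippocampus (log2 difference -3.09 ± 0.06 (SE), adjusted p = 5.25e-18 in edgeR).

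Genes of the outer segment, the membrane stack that holds the pigment, followed the rods, with 18 of 19 at least 4-fold higher in retina. Prph2, which shapes the disc rims, averaged 4729 ± 209 CPM (SD, n = 7) in retina and 0.0511 ± 0.0487 CPM (SD, n = 6) in hippocampus. Its relative Rom1 averaged 1872 and 3.12 CPM. Rp1l1, a microtubule protein of the axoneme, and Tulp1, needed for transport to the outer segment, each had 2 counts over all hippocampus libraries. The count ratio of Tulp1 was 101710 with a counting interval from 28155 to 839862, and that of Rp1l1 was 91426 (25309 to 754946).

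Transcription factors that specify photoreceptors were mostly higher in retina. Of 14 photoreceptor regulators, 11 were at least 4-fold higher, with a median of 6.62 on the log2 scale against 11.70 for the rod genes, and 1, Sall3, was slightly lower (6.74 against 8.38 CPM, log2 difference -0.33 ± 0.13, adjusted p = 0.0205, overlapping libraries). Crx, the homeodomain factor shared by rods and cones, had 1036, 1100 and 1141 CPM in retina and 0.239, 0.324 and 0.559 CPM in hippocampus. Nrl, the leucine zipper factor of rods, had 1517, 1570 and 1726 CPM in retina and 0.757, 0.904 and 1.502 CPM in hippocampus. Both were separated in every library, with log2 differences of 11.59 and 10.68. Nr2e3, the nuclear receptor that represses cone genes in rods, averaged 587 CPM in retina and had 1 count in all hippocampus libraries together, a ratio of 120823 (21684 to 4772340).

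Crx binds a short sequence whose core is often written TAATCC. Promoter sequences from RefSeq (GRCm38.p6), spanning 250 bases before to 50 after a gene's start, were searched for TAATCC on both strands, which reads GGATTA on the other strand. Of the genes at least 4-fold higher in retina, 1157 of 1550 had an entry, and 120 of these promoters (10.4%) held the letters. The share was 4.37% (56 of 1281) for genes at least 4-fold higher in hippocampus, 5.74% (696 of 12124) for all tested genes, and 7.16% (1935 of 27025) for all promoters in the table. In the rod list, 10 of 19 promoters held it, and in the outer segment list 3 of 16. In lists higher in hippocampus, 2 of 14 myelin promoters (14.3%) and 2 of 19 postsynaptic promoters (10.5%) held it too, shares no lower than the 10.4% of the retina genes, though from few promoters. Of genes higher in retina at any size of difference, 6.83% of promoters held it. A match describes the letters in the window and does not show binding. The 5 retina-enriched promoters printed here show how the position of the match varies, from 19 to 228 bases before the start. Hpca, a gene of the opposite direction, is printed because its promoter holds the same letters. Sequences run 5′ to 3′ on the gene's strand, and capitals mark TAATCC or GGATTA.
Crx: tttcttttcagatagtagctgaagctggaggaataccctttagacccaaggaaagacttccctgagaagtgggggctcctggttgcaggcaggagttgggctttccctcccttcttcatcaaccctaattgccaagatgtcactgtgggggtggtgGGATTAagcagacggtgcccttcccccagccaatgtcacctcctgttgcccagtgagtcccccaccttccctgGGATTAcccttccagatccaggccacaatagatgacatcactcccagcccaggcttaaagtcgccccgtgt
Sag: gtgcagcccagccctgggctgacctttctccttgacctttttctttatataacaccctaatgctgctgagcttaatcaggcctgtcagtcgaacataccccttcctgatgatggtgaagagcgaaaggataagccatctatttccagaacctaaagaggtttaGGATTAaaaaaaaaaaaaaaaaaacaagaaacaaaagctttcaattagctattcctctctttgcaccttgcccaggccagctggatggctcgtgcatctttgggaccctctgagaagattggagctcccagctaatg
Cnga1: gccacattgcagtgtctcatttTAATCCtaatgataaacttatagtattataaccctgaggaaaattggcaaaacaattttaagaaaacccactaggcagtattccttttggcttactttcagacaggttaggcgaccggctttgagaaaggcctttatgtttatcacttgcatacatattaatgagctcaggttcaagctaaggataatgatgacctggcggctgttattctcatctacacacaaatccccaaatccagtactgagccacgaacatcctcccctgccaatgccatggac
Rbp3: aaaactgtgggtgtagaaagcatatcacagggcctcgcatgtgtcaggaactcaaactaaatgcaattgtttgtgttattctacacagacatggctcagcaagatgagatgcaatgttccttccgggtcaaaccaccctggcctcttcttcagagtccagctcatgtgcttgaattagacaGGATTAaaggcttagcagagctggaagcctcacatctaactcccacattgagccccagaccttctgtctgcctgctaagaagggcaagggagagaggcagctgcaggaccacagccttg
Gnat2: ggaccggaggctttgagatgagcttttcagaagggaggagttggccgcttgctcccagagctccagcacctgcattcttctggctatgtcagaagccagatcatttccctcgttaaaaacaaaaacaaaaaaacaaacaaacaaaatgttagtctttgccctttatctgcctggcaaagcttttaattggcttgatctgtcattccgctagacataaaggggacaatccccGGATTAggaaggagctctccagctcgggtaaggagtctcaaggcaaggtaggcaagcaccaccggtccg
Hpca: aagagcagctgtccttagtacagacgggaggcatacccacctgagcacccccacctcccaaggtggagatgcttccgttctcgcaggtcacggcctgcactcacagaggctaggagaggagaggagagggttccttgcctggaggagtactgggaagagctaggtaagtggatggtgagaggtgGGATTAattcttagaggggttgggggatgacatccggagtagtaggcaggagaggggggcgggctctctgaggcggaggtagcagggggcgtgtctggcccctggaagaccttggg
The match began 94 and 21 bases before the start of Crx itself (chr7:15879906-15880205, minus strand), 87 before that of Sag (chr1:87803430-87803729, plus strand) and 228 before that of Cnga1 (chr5:72642703-72643002, minus strand). It began 69 bases before the start of Rbp3, which encodes the retinoid carrier of the space between photoreceptors and pigment epithelium (chr14:33953753-33954052, plus strand), and 19 before that of Gnat2, the cone transducin alpha subunit (chr3:108092816-108093115, plus strand). In Hpca it began at 66 bases (chr4:129121698-129121997, minus strand, 1 of 3 promoters listed for the gene). The promoters of Pde6b, Prph2, Nr2e3, Nrl and Opn1sw held no match in this window, and those of Neurod6, Mobp and Cplx2 held none either. The other 4 motifs searched differed less between the directions. TGCTGA was in 19.7% of the retina and 18.1% of the hippocampus group, CAGATG in 17.03% and 15.5%, CAGCTG in 19.97% and 18.3%, and TGACGTCA in 2.51% and 1.64%, against 15.7%, 12.2%, 15.7% and 3.08% of all tested genes.

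Regulators of retinal progenitors and inner neurons showed the same split. Of 22 tested, 19 were higher in retina, 17 at least 4-fold, with a median of 7.52 on the log2 scale. Pax6, the eye field factor kept in amacrine and ganglion cells, averaged 299 CPM in retina and 8.34 CPM in hippocampus. The list was not uniform. Lhx2 (37.1 against 72.9 CPM) and Bhlhe22 (29.7 against 115 CPM), which the forebrain uses as well, were higher in hippocampus, without overlap.

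Prox1 is a marker of horizontal cells and some amacrine cells in the retina and of granule cells in the dentate gyrus. It was nearly equal, with 89.6, 116 and 120 CPM in retina and 84.4, 98.1 and 121 CPM in hippocampus. The libraries overlapped and the difference was 0.15 ± 0.06 on the log2 scale (adjusted p = 0.0361), a call lost under 5 of the alternative settings.

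Bipolar cell genes were mostly far higher in retina, 16 of 20 at least 4-fold. Grm6, the metabotropic glutamate receptor of ON bipolar cells, had 97.2, 107 and 163 CPM in retina and no count in any hippocampus library, at least 7683-fold higher. The highest value, in the retina of female 955, stood well above the other 6, which reached 111 CPM. Trpm1, the channel that Grm6 signalling gates, averaged 378 CPM in retina and 0.0674 CPM in hippocampus, and Lrtm1 averaged 302 and 0.0363 CPM. Higher in hippocampus were Prkca, a kinase that marks rod bipolar cells (444 against 559 CPM, overlapping), Rgs7 (54.3 against 97.7 CPM), Cacna2d3 (82.6 against 164 CPM) and Vstm2b (26.6 against 32.0 CPM, overlapping).

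Of 19 amacrine markers, 12 were at least 4-fold higher in retina. Tfap2b, an amacrine transcription factor, had 178 ± 6.65 CPM (SD, n = 7) in retina and 0.233 ± 0.145 CPM (SD, n = 6) in hippocampus. Slc6a9, the glycine transporter of glycinergic amacrine cells, averaged 242 and 47.4 CPM, and Calb2, calretinin, which is also in the forebrain interneuron list, 340 and 43.4 CPM. The GABA-synthesising enzymes were higher in hippocampus: Gad1 averaged 369 and 447 CPM (log2 difference -0.28 ± 0.05) and Gad2 83.1 and 260 CPM (-1.64 ± 0.05). Vip, a peptide of both tissues, overlapped (-0.28 ± 0.12, adjusted p = 0.0302), and its call was lost under 13 of the alternative settings.

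Horizontal cell markers did not lean one way. Of 12, 4 were higher in retina (against 41.6% of all genes), 5 higher in hippocampus (against 42.6%) and 3 did not pass the test. These counts are near the shares of all genes. The median of -0.09 turned to 0.07 when libraries were scaled to their totals alone. The members that were higher in retina were Gja10, a gap junction protein (2.73 against 0.0179 CPM), the transcription factors Lhx1 (4.04 against 0.199 CPM) and Onecut1 (1.91 against 0.56 CPM), and Megf11 (40.2 against 19.1 CPM). All 4 were separated in every library. Calb1, calbindin, which marks horizontal cells and dentate granule cells alike, averaged 89.2 CPM in retina and 145 CPM in hippocampus.

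Of 16 ganglion cell markers, 10 were higher in retina, 9 of them at least 4-fold. Rbpms, an RNA-binding protein used as a ganglion cell marker, had 36.1, 43.5 and 46.1 CPM in retina and 3.05, 3.52 and 3.91 CPM in hippocampus. Opn4, melanopsin, the pigment of the intrinsically light-sensitive ganglion cells, ranged from 5.70 to 8.17 CPM in retina and from 0 to 0.137 CPM in hippocampus. Higher in hippocampus were 6 members, among them the axonal and cytoskeletal genes Gap43 (35.8 against 158 CPM), Stmn2 (94.1 against 366 CPM), Thy1 (196 against 614 CPM) and Tubb3 (115 against 258 CPM). The summed level of the list was higher in hippocampus, 2003 to 2349 CPM. In retina, female 955 had the lowest sum, 1183 CPM against 1399 to 1501 CPM in the other 6.

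Of 15 markers of Müller glia, the radial glia of the retina, 10 were higher in retina (against 41.6% of all genes). The other 5 were higher in hippocampus (against 42.6%), and the median was 1.06. At least 4-fold higher were 4 in retina (against 10.1%) and 1 in hippocampus (against 11%). Glul, glutamine synthetase, was among the 10 genes with the most counts in retina, with 2514, 2739 and 2884 CPM, and had 1320, 1417 and 1523 CPM in hippocampus. Rlbp1, the retinaldehyde-binding protein of the visual cycle, averaged 472 against 21.5 CPM, and Abca8a, a lipid transporter, 346 against 18.2 CPM. The glutamate transporter Slc1a3 (272 against 833 CPM), the potassium channel Kcnj10 (91.3 against 266 CPM) and Crym (50.4 against 213 CPM) were higher in hippocampus. Among 16 astrocyte markers 15 were higher in hippocampus, 7 at least 4-fold. Gfap, the intermediate filament of astrocytes, had 12.8, 19.997 and 26.0 CPM in retina and 337, 347 and 396 CPM in hippocampus. Slc1a2, the main forebrain glutamate transporter, averaged 332 and 3957 CPM, while Aqp4, the water channel, overlapped (168 and 210 CPM, -0.32 ± 0.07).

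**Figure D3:**
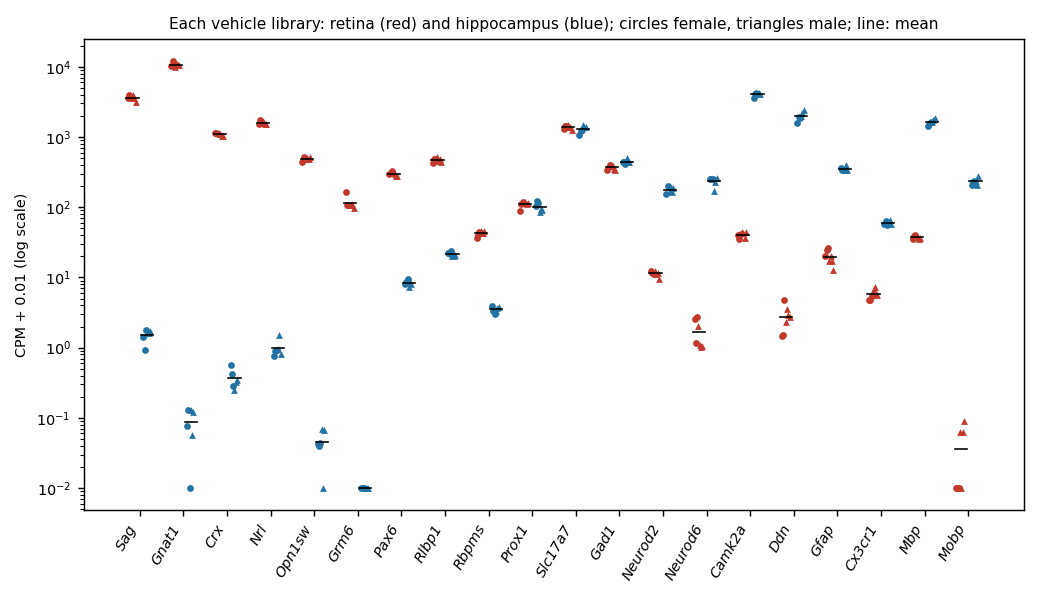
CPM plus 0.01 (log scale) of 20 genes in each of the 13 libraries: retina in red, hippocampus in blue, circles for females, triangles for males, lines for the mean. Photoreceptor genes and the bipolar gene Grm6 at the left have low hippocampus values, Prox1 and Slc17a7 overlap, and forebrain, microglial and myelin genes at the right are higher in hippocampus in every library.

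Photoreceptor and bipolar terminals release glutamate at ribbon synapses, which use their own variants of the release machinery. Of 18 ribbon synapse genes, 11 were at least 4-fold higher in retina. Cplx4, a complexin of photoreceptor terminals, had 512, 547 and 591 CPM in retina and 0 counts in hippocampus, at least 37591-fold higher. Stx3, the syntaxin of ribbon synapses, averaged 762 and 17.1 CPM, and the calcium channel subunits Cacna1f and Cacna2d4 averaged 391 against 0.0387 CPM and 504 against 1.58 CPM. Of the 18, 5 were higher in hippocampus, among them the active zone scaffolds Bsn and Pclo, which ribbon and conventional synapses both use, Bsn at 148 against 844 CPM and Pclo at 290 against 559 CPM.

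Related genes were also set side by side in 19 pairs, 1 member of each picked for retina and 1 for hippocampus. The pairs were picked with earlier results of these data known, so the counts of pairs are description and not support. Over all tested genes 41.6% were called higher in retina and 42.6% higher in hippocampus, and 65.9% separated the libraries of the 2 tissues fully. In 15 pairs both members were called in the opposite directions so assigned. In 18 pairs the ratio of the first to the second, from CPM plus 0.5, was higher in every retina library than in any hippocampus library. For the calcium sensors Rcvrn (recoverin) and Hpca (hippocalcin), the log2 ratio was 3.57 ± 0.0981 (SD, n = 7) in retina and -10.98 ± 0.14 (SD, n = 6) in hippocampus. Rcvrn itself had 803 to 910 CPM in retina and 0 to 0.274 CPM in hippocampus, and Hpca 65.7 to 82.9 and 1069 to 1343 CPM. For Cplx4 over Cplx2 the log2 ratio was 1.19 in retina and -11.75 in hippocampus, and for Stx3 over Stx1a 6.38 and -2.59. Among second messenger genes, Pde6b over Pde1a moved from 7.14 to -9.05 and Gnat1 over Gnao1 from 4.82 to -10.34. Where the first member was near 0 in hippocampus, the size of the hippocampus ratio was set by the added CPM. With 0.1 and 2 CPM added it was -14.07 and -9.75 for Cplx4 over Cplx2, and -12.66 and -9.17 for Rcvrn over Hpca. It was -10.57 and -7.30 for Pde6b over Pde1a, and -12.09 and -8.49 for Gnat1 over Gnao1. The number of pairs with a higher ratio in every retina library was 18 with each.

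Mpp4 and Dlg4 were called in opposite directions, but the neuronal scaffold Dlg4 stayed abundant in retina (517 against 896 CPM). Mpp4 over Dlg4 thus had a log2 ratio of -0.09 in retina and -9.75 in hippocampus. The pairs not called in the opposite directions assigned to them were Slc17a6 and Slc17a7, Hk2 and Hk1, Ckmt1 and Ckb, and Slc6a9 and Slc6a11. The log2 differences of Slc6a9 and Slc6a11 were 2.36 and 0.26. Slc17a6 and Slc17a7 encode vesicular glutamate transporters. Slc17a6 was higher in retina (108 against 22.6 CPM, 2.28 ± 0.28). Slc17a7 had 1263, 1401 and 1459 CPM in retina and 1057, 1325 and 1459 CPM in hippocampus, overlapping, with a difference of 0.10 ± 0.05 (adjusted p = 0.0668). Hk1 was higher in retina together with Hk2. The creatine kinase pair went against its assigned directions, with Ckmt1 higher in hippocampus (-0.63) and Ckb higher in retina (0.49). Its log2 ratio was -2.96 to -2.64 in retina and -1.92 to -1.56 in hippocampus, separated but lower in retina.

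**Figure D4:**
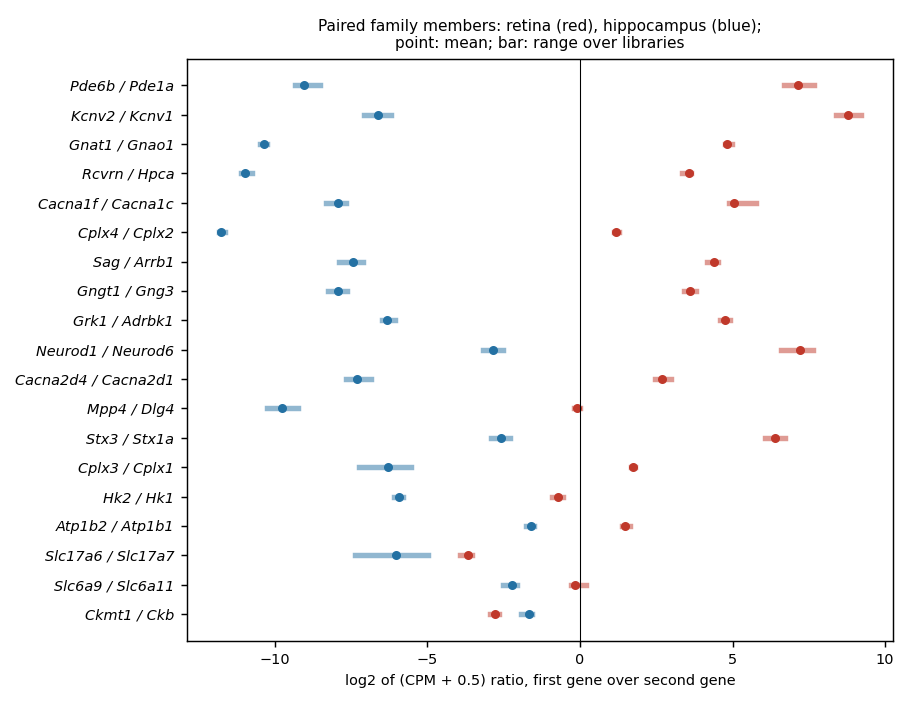
Log2 ratio of the first to the second gene of 19 pairs (CPM plus 0.5), mean (point) and range over libraries (bar), retina in red and hippocampus in blue. The red bars lie to the right of the blue bars in 18 pairs, Ckmt1 over Ckb being the exception.

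In hippocampus, transcription factors of the forebrain marked the tissue. All 23 tested were higher in hippocampus, 21 at least 4-fold (against 11% of all genes), with a median of -5.91 on the log2 scale, or -5.71 with the 3 genes lacking retina counts set at their bound. Neurod6, a factor of pyramidal neurons, had 1.02, 1.16 and 2.70 CPM in retina and 173, 251 and 258 CPM in hippocampus. The groups did not overlap, and the log2 difference was -7.10 ± 0.15. Mef2c was nearly equal (176 against 213 CPM, overlapping, adjusted p = 0.0189), a call lost under 9 alternative settings. Outside the list, Zbtb16, a zinc finger factor, averaged 8.92 CPM in retina and 104 CPM in hippocampus (-3.60 ± 0.10), and Banp 35.4 and 40.9 CPM, overlapping (-0.21 ± 0.0804).

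Pyramidal neuron markers were higher in hippocampus in 17 of 20 cases, 15 at least 4-fold. Camk2a, the calcium/calmodulin kinase of glutamatergic forebrain neurons, had the most counts of any gene in hippocampus, with 3592, 4129 and 4264 CPM against 35.1, 40.9 and 44.6 CPM in retina. The difference was -6.65 ± 0.07 (adjusted p = 7.07e-21). Nrgn, neurogranin, a calmodulin-binding protein of spines, averaged 802 CPM in hippocampus and 6.35 CPM in retina. Dkk3 (1056 against 504 CPM) and Amigo2 (103 against 39.6 CPM), used as markers of hippocampal fields, were higher in retina. Granule cell markers were less sharply divided: 15 of 18 were higher in hippocampus but 7 at least 4-fold, and Penk (92.7 against 25.5 CPM) and Pdzd2 (161 against 87.3 CPM) were higher in retina.

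The postsynaptic density, the scaffold under excitatory spine synapses, was higher in hippocampus throughout. All 27 tested genes were higher in hippocampus, 19 at least 4-fold, with a median of -2.75. Ddn, dendrin, had 1.46, 2.72 and 4.83 CPM in retina and 1593, 1984 and 2434 CPM in hippocampus, a difference of -9.48 ± 0.16. Camk2b averaged 167 and 1279 CPM and Dlgap1 96.8 and 813 CPM. The scaffolds Dlg2 (314 against 570 CPM) and Dlg4 differed by less than 4-fold.

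Glutamate receptors leaned the same way, 19 of 26 higher in hippocampus and 13 at least 4-fold. The AMPA receptor subunit Gria1 had 56.8 to 70.5 CPM in retina and 1298 to 1549 CPM in hippocampus, the NMDA receptor subunit Grin1 67.3 to 87.4 and 549 to 678 CPM, and the metabotropic receptor Grm5 25.7 to 36.0 and 390 to 539 CPM. None of the 3 overlapped. Besides Grm6, the retina was higher for the kainate receptor subunit Grik1 of OFF bipolar cells (122 against 17.5 CPM), for Grm8 (40.9 against 9.67 CPM) and, at a low level, for Grin3b.

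Inhibitory receptors split into 2 sets. Of 23 GABA and glycine receptor genes, 6 were at least 4-fold higher in retina and 6 at least 4-fold higher in hippocampus. The retina set held GABA receptor subunits found on bipolar cells: Gabrr1 averaged 124 against 0.237 CPM, Gabrr2 74.5 against 0.831 CPM and Gabrr3 17.6 against 0.032 CPM. Glra1, a glycine receptor subunit, averaged 11.98 against 0.0754 CPM. The subunits of common GABA-A and GABA-B receptors were higher in hippocampus, including Gabbr1 (200 against 745 CPM).

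Monoamine and acetylcholine receptors showed a similar exchange. Drd4, a dopamine receptor of photoreceptors, averaged 52.2 CPM in retina and 0.0293 CPM in hippocampus, and the nicotinic subunits Chrna6 and Chrnb3 157 against 0.226 CPM and 119 against 0.755 CPM. The muscarinic receptor Chrm1 averaged 10.3 and 350 CPM. The serotonin receptor gene Htr4 had no count in retina and 19.6 to 30.2 CPM in hippocampus, at least 808-fold higher there. Npy2r, a neuropeptide Y receptor, had 1 retina count in all, a ratio of 8563 (1537 to 338231). Outside the receptors, the signalling gene Wnt7b had 3 retina counts and 54.3 to 64.5 CPM in hippocampus, a ratio of 1934 (662 to 9379). Its log2 difference was -11.79 here and -5.20 in tamoxifen animals, a contrast that was not tested. Of the 32 genes tested, 14 were at least 4-fold higher in hippocampus and 8 in retina.

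Ion channel genes were mostly higher in hippocampus, 26 of 36 potassium channel genes, inward rectifiers included, and 21 of 31 sodium, calcium and HCN channel genes. Of these, 14 and 12 were at least 4-fold higher there. Over all tested genes 42.6% were higher in hippocampus and 11% at least 4-fold. Scn2a1, a sodium channel of axons, averaged 65.2 and 525 CPM, Scn8a 132 and 620 CPM, and the calcium channel Cacna1e 9.94 and 512 CPM. Kcnv2, a modifier subunit known from photoreceptor inner segments, went the other way and averaged 705 against 0.12 CPM. Kcnj14 (718 against 2.64 CPM) was also higher in retina. The summed potassium channel counts came to 4233 to 4658 CPM in retina and 3721 to 4203 CPM in hippocampus, although most single genes were lower in retina.

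Neuropeptide genes were higher in hippocampus in 14 of 22 cases (against 42.6% of all genes), 9 of them at least 4-fold (against 11%). Sst, somatostatin, averaged 4.18 and 191 CPM and Vgf 29.5 and 201 CPM, while Cartpt (63.5 against 2.22 CPM) and Tac2 (20.2 against 3.35 CPM) were higher in retina. Immediate early genes, which neurons switch on with activity, were higher in hippocampus in 16 of 21 cases, 13 at least 4-fold. Arc, a synaptic activity gene, had 2.05, 2.75 and 3.65 CPM in retina and 166, 170 and 180 CPM in hippocampus, and Egr1 averaged 26.8 and 192 CPM. Some members went the other way: Fos overlapped and was slightly higher in retina (28.6 against 21.2 CPM, 0.45 ± 0.10), and Btg2 (106 against 18.3 CPM) and Ier2 (11.1 against 5.03 CPM) were higher in retina.

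Oligodendrocyte genes were low in retina. All 21 myelin genes tested were higher in hippocampus, 20 at least 4-fold, with a median of -6.15. Mbp, a structural protein of compact myelin, had 34.9, 37.4 and 40.4 CPM in retina and 1414, 1636 and 1864 CPM in hippocampus. Mobp, a further myelin protein, had 0 counts in 4 of 7 retina libraries and 3 counts in all, against 205 to 279 CPM in hippocampus, a ratio of 7559 (2586 to 36655). Trf, transferrin, which other cells also make, was the member short of 4-fold (114 against 277 CPM).

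Oligodendrocyte precursor genes followed, 8 of 10 at least 4-fold higher in hippocampus. Olig1 had 2 retina counts in all and averaged 95.6 CPM in hippocampus, a ratio of 4669 (1292 to 38558), and Gpr17 averaged 0.286 and 83.3 CPM. Pdgfra, which retinal astrocytes and fibroblasts carry as well, differed less (18.6 against 88.5 CPM). C1ql1 (48.8 against 8.26 CPM) and Lhfpl3 (79.2 against 23.9 CPM) were higher in retina.

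Microglial genes were higher in hippocampus without exception, 16 of 16, of which 14 at least 4-fold. Cx3cr1, the fractalkine receptor, had 4.75, 5.61 and 7.24 CPM in retina and 55.8, 60.3 and 65.4 CPM in hippocampus, and Csf1r averaged 12.1 and 114 CPM. The summed list ranged from 90.9 to 122 CPM in retina and from 625 to 708 CPM in hippocampus. Endothelial markers were higher in hippocampus in 13 of 16 cases (against 42.6% of all genes), but only 1 at least 4-fold (6.25%, against 11%). The tight junction gene Cldn5 differed by less (11.1 against 26.3 CPM). Higher in retina were Kdr, the VEGF receptor that retinal neurons also make (208 against 18.6 CPM), the glucose transporter Slc2a1 (267 against 116 CPM) and Flt1 (94.9 against 69.6 CPM). The summed endothelial list was higher in retina, 634 to 738 CPM against 487 to 611 CPM in hippocampus.

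Of 29 glycolysis and lactate genes, 18 were higher in retina and 11 in hippocampus, with a median of 0.53, against 41.6% and 42.6% of all genes. Ldha, lactate dehydrogenase A, had 1129, 1286 and 1346 CPM in retina and 222, 285 and 309 CPM in hippocampus. Hk2, a hexokinase of photoreceptors, had 497, 553 and 593 CPM in retina and 7.20, 8.40 and 10.2 CPM in hippocampus, a difference of 6.03 ± 0.08. Pkm averaged 3018 and 1210 CPM. Pdk4, a pyruvate dehydrogenase kinase, was the strongest exception (1.09 against 18.3 CPM).

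Nuclear genes of oxidative phosphorylation differed little. Of 43, 8 were higher in retina and 24 in hippocampus, against 41.6% and 42.6% of all genes. The other 11 did not pass the test. None of the 43 reached 4-fold, and the median was -0.21, or -0.05 with library totals. Without the hippocampus of female 958, 13 were higher in retina and 21 in hippocampus. Atp5b averaged 1133 and 992 CPM and Atp5a1 746 and 803 CPM, both overlapping. Among 30 housekeeping genes none reached 4-fold; Actb, the cytoskeletal actin often used as a reference, was at 258 CPM in retina and 973 CPM in hippocampus, and Gapdh at 2021 and 996 CPM.

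Cilium genes were higher in retina in 30 of 40 cases (against 41.6% of all genes), 10 of them at least 4-fold (against 10.1%). Photoreceptors each carry a modified cilium, whose part in these values was not tested. Bbs7, a subunit of the BBSome that carries cargo in cilia, averaged 201 and 21.2 CPM, and Arl3, a GTPase of ciliary import, 194 and 71.5 CPM. The ciliary motor Kif17 was higher in hippocampus (4.98 against 21.3 CPM). Clock genes were higher in retina in 12 of 19 cases (against 41.6% of all genes), 3 of them at least 4-fold (against 10.1%). Rorb averaged 272 and 26.7 CPM, and Nr1d1, a repressor of the clock loop, 276 and 125 CPM. Npas2, a forebrain partner of Bmal1, averaged 3.44 and 39.7 CPM. Of 25 splicing and RNA regulators, 18 were higher in hippocampus (against 42.6% of all genes), 5 of them at least 4-fold (against 11%). Rbfox1 stood at 72.1 against 542 CPM, while Msi1, a Musashi protein that photoreceptors use in splicing, was higher in retina (183 against 19.2 CPM).

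Markers of tissue that adjoins the retina or hippocampus varied between libraries. Pigment epithelium lies against the photoreceptors, and 11 of 17 of its genes were at least 4-fold higher in retina. Dct, a pigment enzyme, had 30.5, 255 and 576 CPM in retina and at most 1.03 CPM in hippocampus, and Tyrp1 16.5, 68.0 and 272 CPM. The spread within retina was thus far wider than for any rod gene named above. Rpe65, the isomerase that defines the pigment epithelium, ranged from 4.26 to 12.6 CPM in retina and did not exceed 0.563 CPM in hippocampus. The summed list ran from 700 to 1834 CPM over the retina libraries, and its part in the visual cycle values was not tested. Of 8 lens genes tested, 3 were higher in retina and 3 in hippocampus (against 41.6% and 42.6% of all genes). The summed list was higher in hippocampus, 75.1 to 101 CPM against 30.8 to 50.2 CPM in retina. Most of it was Cryab, a small heat shock protein made in many tissues (35.2 against 78.9 CPM). Cryaa, the main lens crystallin, did not exceed 1.76 CPM in retina, and Crybb1 averaged 0.282 CPM in retina and 2.65 CPM in hippocampus.

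The hippocampus of female 958 stood apart in genes of the choroid plexus, which makes cerebrospinal fluid in the ventricle beside the hippocampus. The 17 genes summed to 5389 CPM there and to 335 to 515 CPM in the other 5 hippocampus libraries. Ttr, transthyretin, reached 2232 CPM there against 29.6 to 103 CPM, and its call (log2 difference -2.53 ± 0.71, adjusted p = 0.00344) was lost without that library (-0.48, adjusted p = 0.115). Otx2, a factor of photoreceptors, bipolar cells and choroid plexus, had 134, 148 and 156 CPM in retina, 18.5 CPM in that library and at most 1.11 CPM in the other 5. Its log2 difference moved from 6.01 to 7.56 without it. Aqp1 moved from 5.94 to 8.20, Slc4a5 from 4.02 to 6.50, Folr1 from 2.18 to 3.97, Kl from -4.16 to -3.41 and Enpp2 from -2.17 to -1.26, all still called. Of 16 tested genes of the list, 4 were higher in retina and 6 in hippocampus with all libraries, and 10 and 5 without it.

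**Figure D5:**
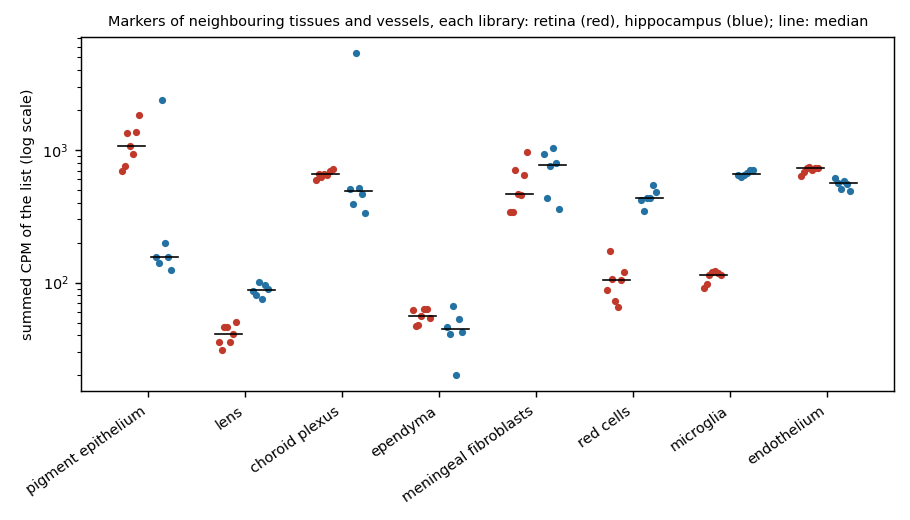
Summed CPM (log scale) of 8 marker lists for adjoining tissues, blood, microglia and vessels in each library, retina in red and hippocampus in blue, lines for the median. The hippocampus of female 958 lies far above the other hippocampus libraries for choroid plexus (5389 CPM) and, through Ttr, for pigment epithelium (2366 CPM).

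Markers of other cell types were mixed. Of 14 meningeal and fibroblast genes 7 did not pass the test, and Dcn, a collagen-binding matrix protein, ranged from 5.003 to 87.5 CPM in retina and from 44.9 to 88.5 CPM in hippocampus. Haemoglobin genes were low in both tissues and none was called. Of 11 ependymal genes 8 were higher in hippocampus (against 42.6% of all genes), 4 of them at least 4-fold (against 11%). Myh11 and Tagln, of smooth muscle, varied widely in retina, Myh11 from 7.61 to 101 CPM, and Vtn, vitronectin, listed with mural cells but also made by photoreceptors, averaged 837 and 62.9 CPM.

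Females and males were compared for the size of the tissue difference. Of 15410 genes, 1 (0.00649%) passed adjusted p 0.05 for a difference of the tissue contrast between the sexes, and 2447 had an unadjusted p under 0.05. That share is larger than the 0.05 that no difference would give, so the single call does not show the sexes to be alike. The gene that passed was Iqgap2, a scaffold protein of the actin cytoskeleton. Its means were 25.5 ± 0.583 CPM (SD, n = 3) in female and 37.7 ± 3.08 CPM (n = 4) in male retina, and 197 ± 15.1 CPM (n = 3) in female and 150 ± 18.9 CPM (n = 3) in male hippocampus. The tissue difference was smaller in males by 0.95 ± 0.13 on the log2 scale (adjusted p = 0.0289 in edgeR). The count depended on the processing and was 0 when the animal entered as a block and 309 with DESeq2, and it was 0 without the hippocampus of 957 or 966 or the retina of 955, 957 or 964.

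Tamoxifen animals, which the contrast did not use, were set beside this contrast. The 8 retina and 8 hippocampus libraries of tamoxifen animals were fitted in the same way, and 3224 of the 3250 genes with at least 4-fold differences could be tested there. All 3224 had the same sign, and 3013 (93.5%) were again called with at least 4-fold differences. This is a description across separate animals, since the difference between treatments was not tested here.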

How the data were processed

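RNA was extracted with AllPrep kits and libraries made with a TruSeq RNA kit, per the labels' protocols. The authors deposited 1 table per tissue of expected counts per gene, marked raw in the column names and with fractional parts: 17.7% (hippocampus) and 21.2% (retina) of nonzero values were whole to within 0.001. The submitters' processing notes name GRCm38, mm10 and DESeq without roles; what aligned and counted the reads, and whether by strand, is not given in the sources used here, so near-identical, overlapping or antisense genes are uncertain.

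Tables were joined by gene ID, 36172 genes, and counts were rounded. edgeR 4.0.16 (R 4.3.3) filtered genes (filterByExpr, minimum count 10, total 15), scaled library totals by TMM and fitted 4 group means, tissue by sex; the contrast averaged the sexes. P-values were Benjamini-Hochberg adjusted over all tested genes. The value after ± in a log2 difference is an approximate SE from the fit. It can be smaller than counting error alone allows where a tissue has few counts. For that reason it is not given for Gnat1, Crx and Nrl. CPM uses TMM-scaled totals. The fit was tried on simulated counts in which few genes differed between the tissues and the rest had equal means. Here 84.2% of genes were called, so that trial does not test scaling or error control in this setting. Counting intervals are exact 95% intervals and, like the bounds from 3 counts, cover counting error only. Levels per kilobase use GENCODE M21 transcript lengths. No pair of replicates agreed within sampling noise (chi-square per gene at least 3.73).

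The libraries compared, the 42 lists and the 19 pairs were chosen with earlier results of these data known, so nothing in them is independent support. Of 829 listed names, 12 matched under another symbol and 4 matched none. Genes were named by rule: the 15 largest separated differences each way at 10 CPM or more, the 10 genes with most counts per tissue, up to 6 per list by CPM and up to 4 against a list's direction, the pairs, a marker panel, and sex calls; some of these genes are not reported here. Abca8a, Banp, Opn4, Pde6d and Zbtb16 were named after their values were seen. Animals pair the libraries, but deviations of the 2 tissues of an animal correlated between -0.0933 and 0.00556, and the block was an alternative. Alternatives were other scalings, DESeq2 1.42.0, other filters, no sex term, thinned hippocampus counts, the 6 shared animals and each library left out.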

Additional observations from a re-analysis of the deposited data

Results flagged for a closer look

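Single libraries stood away from the rest of their tissue in 19 of the 138 combinations of tissue and measure examined; chance gives about 1 in 20. The hippocampus libraries of females 955, 957 and 958 and the retina library of female 955 account for most.

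The hippocampus of female 958 had the choroid plexus list at 5389 CPM (others 335 to 515), the pigment epithelium list at 2366 CPM (others 124 to 198), Ttr at 2232 CPM, Otx2 at 18.5 CPM and the visual cycle list at 423 CPM (others 349 to 372).

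The hippocampus of female 957 had the glutamate receptor list at 5827 CPM (others 5109 to 5208), the sodium, calcium and HCN channel list at 6042 CPM (others 5276 to 5452), the ribbon synapse list at 4406 CPM and the cone list at 1572 CPM. The hippocampus of female 955 was low, with the pyramidal list at 7453 CPM (others 8341 to 8765), the postsynaptic density list at 12322 CPM (others 13933 to 14609) and Camk2a at 3592 CPM (others 4034 to 4264). Neurod6 was low in the hippocampus of male 963, at 173 CPM (others 232 to 258), and Nrl was 1.502 CPM in that of male 964 (others 0.757 to 0.958).

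The retina of female 955 was low for the ganglion cell list at 1183 CPM and for Prox1 at 89.6 CPM (others 111 to 120), and high for Grm6 at 163 CPM (others 97.2 to 111) and for the sodium, calcium and HCN channel list at 3275 CPM (others 2739 to 2928). The retina of female 957 had the highest rod list, 77234 CPM (others 66636 to 71055).

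Iqgap2 differed between the sexes in its tissue difference, by 0.95 on the log2 scale (edgeR interaction, adjusted p = 0.0289).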

How the results depend on the processing

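The numbers of genes called, and of those at least 4-fold apart, stayed within 1.5 times their reported values under every alternative run, as did the 10 and 8 lists with at least 50% of members past 4-fold. Leaving out 1 library at a time gave 12894 to 13174 called genes, 1589 to 1739 at least 4-fold higher in retina and 1671 to 1802 in hippocampus. The 1550 reported for retina lies below all of these runs. The filter was applied anew in each run, so the genes tested could differ. With the hippocampus counts thinned to retina depth, 12635 genes were called for retina against hippocampus, and the replicate block by animal gave 12593. The block removed the calls of Eef1a1 (adjusted p = 0.0505), Vip (0.055), Myh11 (0.349), Ttr (0.156) and Sall3 (0.0573), added that of Dcn (0.0229), and changed no other named gene's call. The count of genes whose tissue difference differed between the sexes was not stable: 1 as reported, 0 with upper quartile scaling, 0 with the replicate block, 3 with the 6 shared animals, 9 without a filter, 309 with DESeq2, and 0 to 7 with 1 library left out. It was 0 without the hippocampus of 957 or 966 or the retina of 955, 957 or 964, and 7 without the retina of 958. The cause was not tested. With upper quartile scaling the log2 difference turned from -0.0574 to 0.13 for Sept4, from -0.0725 to 0.12 for Sdha and from -0.17 to 0.0187 for Nefm, genes named by the rule but not described above. Depth limits what a 0 shows, to 0.0307 CPM in retina and 0.0147 CPM in hippocampus.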
